A study of Mus musculus with 6 samples.

Results

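The mitochondrial SLC25 carriers are a family of nuclear-encoded membrane proteins, and their genes are followed here in marrow cells selected with CD8 beads. Members were the protein-coding genes of the deposited count table whose symbol is Slc25a followed by a number, without Slc25a37 and Slc25a38, which serve haem synthesis in red cell precursors. This gave 45 of 54532 genes, and 35 of them had enough reads to be tested. The libraries came from female CByB6F1 hybrid mice 2 to 5 months of age, all with immune bone marrow failure (BMF), in which T cells destroy the blood-forming cells. In 3 libraries (pools 1 to 3) the mice had been treated with ruxolitinib, which blocks JAK1 and JAK2, kinases that relay interferon and other cytokine signals. In the other 3 (pools 4 to 6) they were untreated, and each library combined cells of 2 to 3 mice of its group. The sources used here do not give the dose, the length of treatment or the way the disease was induced. The design holds a single comparison, of treated with untreated pools. Cells of a pool share a library, and it is not stated whether the pools were made on separate days, so p-values measure the spread between pools.

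SLC25 carriers sit in the inner mitochondrial membrane, apart from a few members placed in the outer membrane or the peroxisome, and exchange small molecules between the cytosol and the matrix. They pass ADP in and ATP out, bring in phosphate, and move citrate, malate, amino acids, fatty acyl groups, nucleotides and cofactors. Activated T cells lean on this traffic for respiration, for the malate-aspartate shuttle that returns reducing power to the matrix, and for one-carbon metabolism. Red cell precursors use carriers for iron, glycine and glutathione while they make haem.

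The libraries held 13829808 to 17708196 counted reads, and levels are in CPM, a gene's read count relative to the library size scaled by edgeR's TMM factors. Of the 17 CD8 T cell identity genes used as markers, 16 were lower with ruxolitinib (summed level 1892 to 5415 CPM against 10632 to 12909 CPM in controls), with Trbc2 and Thy1 the most abundant. All 13 measured erythroid markers were higher (125410.0 to 245846 CPM against 1919 to 2749.8 CPM), led by Hba-a1 and Hbb-bs, as were all 14 monocyte and macrophage markers (9172 to 14973 against 1186 to 1608 CPM), led by Hmox1 and Lyz2, and all 12 B and plasma cell markers (1114 to 1776 against 208 to 280.3 CPM), led by Ighm and Igkc. The defining B cell genes Ms4a1 and Pax5, the dendritic cell genes Siglech and Flt3 and the stromal gene Col3a1 had 0 counts in all controls. Of the granulocyte markers 9 of 12 were higher and 1 lower (9028 to 21037 against 1649 to 6332 CPM, Ngp and S100a8 the most abundant), of the dendritic markers 7 of 10 higher and 1 lower (2568 to 2861 against 1188 to 1331 CPM, Cd74 the most abundant, and H2-Ab1, next in level, not past the threshold), of the stromal and endothelial markers 8 of 9 higher (128 to 175 against 33.1 to 40.2 CPM, Cxcl12 the most abundant, and Pecam1 not past the threshold) and of the platelet markers 4 of 6 tested higher (33.9 to 62.9 against 21.4 to 50.96 CPM, with the most abundant, Pf4 and Itga2b, not past the threshold). Among the ruxolitinib libraries, pool 3 had the highest CD8 identity sum. It had the lowest erythroid, monocyte and macrophage, granulocyte, B and plasma cell, and platelet sums. The part of these other cells in the carrier results was not tested. In bulk RNA, fewer cells of a type and less RNA per cell cannot be told apart.

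With ruxolitinib, the genes Slc25a39 (glutathione), Slc25a51 (NAD), Slc25a42 (coenzyme A) and Slc25a21 (oxodicarboxylates) were higher, and Slc25a3 (phosphate), Slc25a4 and Slc25a5 (ADP/ATP), Slc25a11 (malate) and Slc25a20 (acylcarnitine) were lower on the TMM scale, which holds the bulk of genes near no change, while none of the second set was lower after scaling libraries to CD8 identity genes. Of the 35 tested members 8 rose and 14 fell at adjusted p under 0.05 (edgeR), and 13 did not pass, while scaling each library to its CD8 identity genes gave 18 higher and 0 lower, on a scale where 70.5% of all genes tested were higher and 0.467% lower. The background is wide. Of all 13480 genes tested, 29.9% rose and 25.3% fell, beside 22.9% and 40% of the tested carriers. The median log2 fold change (ruxolitinib over control) was -0.53 over the tested carriers and 0.03 over all genes, and 9 carriers were lower without ruxolitinib pool 1. The rises ran from 0.57 to 5.99 and were more than 2-fold in 6 members, and the falls ran from -0.72 to -1.94 and were more than 2-fold in 8. Leaving out any 1 pool moved no tested carrier's fold by more than 1.5 times.

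**Figure D1:**
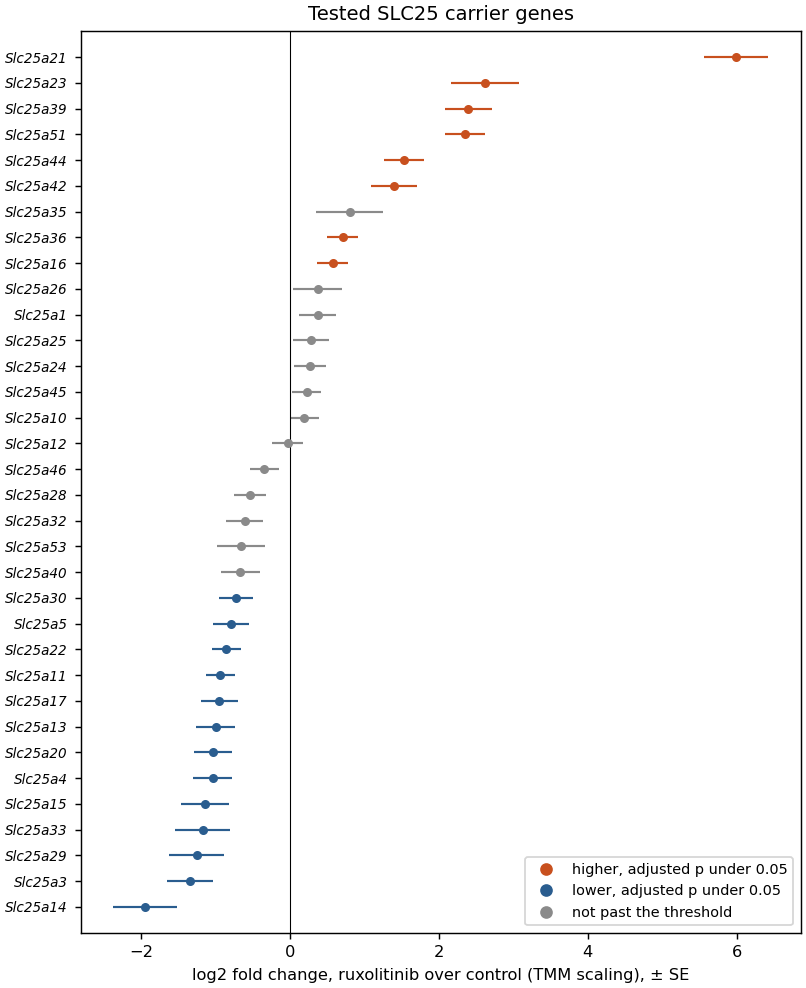
Log2 fold change of 34 tested carrier genes, ruxolitinib over control with TMM scaling; points are edgeR estimates and bars the SE over 3 against 3 pools. Slc25a21 stands at 5.99, 7 other genes are higher at 0.57 to 2.62, and 13 are lower at -0.72 to -1.94, none of which is lower at the threshold after scaling libraries to CD8 identity genes.

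Among the tested members the widest change was in Slc25a21, which encodes the carrier of 2-oxoadipate and related oxodicarboxylates of lysine and tryptophan breakdown. It had 7, 2 and 8 reads in control pools 4, 5 and 6 and 309, 359 and 267 reads in ruxolitinib pools 1, 2 and 3, that is 0.388, 0.131 and 0.498 CPM in the controls and 22.6, 27.3 and 16.9 CPM with ruxolitinib. Every treated pool lay far above every control pool. The log2 fold change was 5.99 ± 0.43, adjusted p = 1.86e-05, although its size rests on few control reads. Slc25a23, which encodes the calcium-regulated ATP-Mg/phosphate carrier SCaMC-3, was also scarce in controls, with 0.720, 0.785 and 1.62 CPM in the controls and 8.63, 6.08 and 4.61 CPM with ruxolitinib (2.62 ± 0.45, adjusted p = 0.00106). Its highest control, pool 6, was still below the lowest treated pool.

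Among the members, Slc25a39 and Slc25a51 were the abundant genes that rose. Slc25a39 encodes the importer of glutathione into mitochondria and is strongly used by red cell precursors. It had 168, 177 and 213 CPM in the controls and 1001, 1327 and 616 CPM with ruxolitinib, so the groups lay far apart while the treated pools were spread widely among themselves, and the log2 fold change was 2.40 ± 0.31, adjusted p = 0.000257. Slc25a51, which encodes the mitochondrial NAD importer, had 59.8, 58.9 and 56.8 CPM in the controls and 319, 381 and 195 CPM with ruxolitinib (2.35 ± 0.27, adjusted p = 0.000133). In both genes ruxolitinib pool 3 was the lowest treated pool and still above every control. That pool had the highest CD8 identity sum and the lowest erythroid, monocyte and macrophage, granulocyte, B and plasma cell, and platelet sums. Slc25a21 and Slc25a23 were also lowest in pool 3 among the treated libraries, while Slc25a42 was lowest in pool 1 (8.63 CPM, against 8.79 CPM in pool 3). The cell source was not tested.

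Of the 7 cofactor carriers 3 rose and 2 fell, beside 29.9% and 25.3% of all genes tested. So few members cannot be told apart from those shares. Besides Slc25a51, the coenzyme A carrier gene Slc25a42 had 3.82, 3.14 and 4.61 CPM in the controls and 8.63, 13.1 and 8.79 CPM with ruxolitinib and rose (1.39 ± 0.31, adjusted p = 0.00408). Slc25a16, linked to the same cofactor, had 13.8, 12.8 and 13.02 CPM in the controls and 21.1, 19.3 and 18.5 CPM with ruxolitinib. Its groups did not overlap and its small rise (0.57 ± 0.21, adjusted p = 0.0383) was called in only 1 of the 6 fits that each leave out 1 pool (adjusted p up to 0.127 in the others). Slc25a17, whose product is the peroxisomal carrier of coenzyme A, FAD and NAD, fell (-0.95 ± 0.25, adjusted p = 0.00935, and adjusted p = 0.065 without ruxolitinib pool 1). Values that did not pass were -0.61 ± 0.25 for Slc25a32 (FAD and folate) and 0.37 ± 0.33 for Slc25a26 (S-adenosylmethionine).

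**Figure D2:**
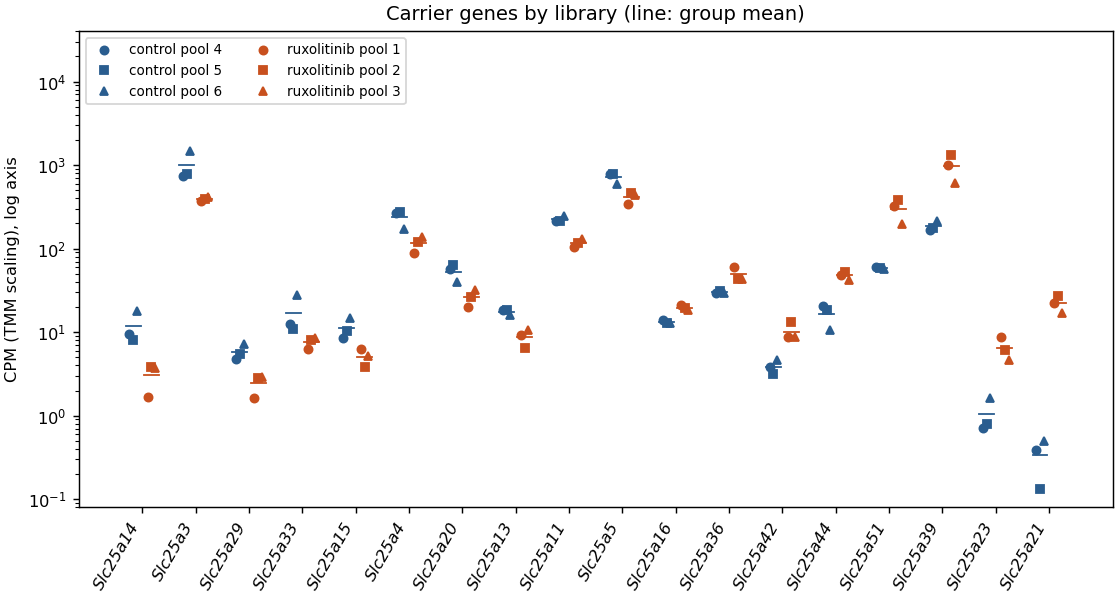
CPM with TMM scaling on a log axis for 18 carrier genes, with 1 symbol per pool and a line at each group mean. In the 10 genes on the left every control pool lies above every ruxolitinib pool. In the 8 on the right every ruxolitinib pool lies above every control pool. All 18 were picked from called members, so their separation largely follows from the choice. The share of all genes that separate in this way was not computed. After scaling libraries to CD8 identity genes, none of the 10 was lower at the threshold.

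The ADP/ATP carrier genes Slc25a4 and Slc25a5, the phosphate carrier gene Slc25a3 and the acylcarnitine carrier gene Slc25a20 were lower on the TMM scale, and their values were positive, though not past the threshold, after scaling libraries to CD8 identity genes. Slc25a5 encodes ANT2, the ADP/ATP carrier of dividing cells, and was the most abundant carrier of the controls per length. It had 778, 780.2 and 595 CPM in the controls and 341, 461 and 444 CPM with ruxolitinib and fell (-0.79 ± 0.24, adjusted p = 0.0185), a call that was lost without ruxolitinib pool 1 or control pool 4 or 5 (adjusted p = 0.0802, 0.0641 and 0.077). Slc25a4, the gene of the isoform ANT1, fell by a similar size (-1.03 ± 0.26, adjusted p = 0.00815), from 264, 277 and 171 CPM in the controls to 88.1, 121 and 138 CPM. In both genes control pool 6 was the lowest control and lay nearest to the treated pools.

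Slc25a3 encodes the phosphate carrier, which also brings copper to the matrix. It had 739.6, 790.0 and 1489 CPM in the controls and 373, 398 and 419.6 CPM with ruxolitinib, and fell (-1.34 ± 0.31, adjusted p = 0.00461). Here control pool 6 was the highest library, well above the other controls, while the treated pools were tightly grouped. The acylcarnitine carrier gene Slc25a20, which admits fatty acids for oxidation, fell with 56.3, 63.7 and 39.6 CPM in the controls and 20.1, 26.001 and 32.05 CPM with ruxolitinib (-1.03 ± 0.25, adjusted p = 0.00715).

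Of the other adenine nucleotide carriers, the ATP-Mg/phosphate genes Slc25a24 (51.4, 42.2 and 65.7 CPM in the controls and 70.8, 56.1 and 65.3 CPM with ruxolitinib) and Slc25a25 (13.8, 16.2 and 11.4 CPM in the controls and 14.1, 19.1 and 17.4 CPM with ruxolitinib) had overlapping groups. Their log2 fold changes of 0.27 ± 0.22 and 0.29 ± 0.24 did not pass. Slc25a31, the gene of the germ cell isoform ANT4, had 2, 3 and 7 reads with ruxolitinib and 0 in each control, too few for a test.

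Among citrate and dicarboxylate carriers, Slc25a11, which encodes the oxoglutarate-malate carrier of the malate-aspartate shuttle, fell from 215, 214 and 246 CPM in the controls to 105, 117 and 131 CPM (-0.93 ± 0.20, adjusted p = 0.00312). The replicates of each group lay close together, with a gap between the groups. The dicarboxylate carrier gene Slc25a10 had 38.9, 35.4 and 37.6 CPM in the controls and 42.002, 49.1 and 37.2 CPM with ruxolitinib, with overlapping groups, and did not pass (0.20 ± 0.19). The citrate carrier gene Slc25a1 did not pass either (0.37 ± 0.24).

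Of 6 tested amino acid carriers 4 fell and 1 rose, beside 25.3% and 29.9% of all genes tested, a difference that was not tested. The 4 that fell had positive values under CD8 identity scaling. Slc25a13 encodes citrin, an aspartate-glutamate carrier and a component of the malate-aspartate shuttle. It had 18.4, 18.2 and 15.9 CPM in the controls and 9.29, 6.39 and 10.6 CPM with ruxolitinib and fell (-0.997 ± 0.26, adjusted p = 0.00886). Its paralogue Slc25a12, the gene of aralar, had 69.8, 57.6 and 46.5 CPM in the controls and 56.2, 51.2 and 62.8 CPM with ruxolitinib, with overlapping groups and a value of -0.03 ± 0.21 that did not pass. The glutamate carrier gene Slc25a22 had 34.9, 31.7 and 36.1 CPM in the controls and 18.7, 18.2 and 20.04 CPM with ruxolitinib and fell (-0.85 ± 0.19, adjusted p = 0.00441). The ornithine carrier gene Slc25a15 (8.47, 10.3 and 14.95 CPM in the controls and 6.37, 3.80 and 5.12 CPM with ruxolitinib, -1.14 ± 0.32, adjusted p = 0.0142) and the basic amino acid carrier gene Slc25a29 (4.76, 5.50 and 7.23 CPM in the controls and 1.61, 2.81 and 2.91 CPM with ruxolitinib, -1.25 ± 0.37, adjusted p = 0.0166) fell by more than 2-fold. Without ruxolitinib pool 2 Slc25a15 did not pass (adjusted p = 0.0601), nor did Slc25a29 without pool 1 (adjusted p = 0.0719). The gene that rose was Slc25a44, which encodes a carrier of branched-chain amino acids, with 20.8, 18.2 and 10.6 CPM in the controls and 48.3, 52.5 and 42.2 CPM with ruxolitinib (1.53 ± 0.27, adjusted p = 0.0012).

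The pyrimidine nucleotide carriers moved apart. Slc25a33, which encodes PNC1, had 12.6, 10.9 and 27.8 CPM in the controls and 6.29, 8.13 and 8.41 CPM with ruxolitinib and fell (-1.17 ± 0.37, adjusted p = 0.0229), with control pool 6 far above the other controls. The call was lost without ruxolitinib pool 1 (adjusted p = 0.106) or pool 2 (adjusted p = 0.0598). Slc25a36, the gene of PNC2, had 29.7, 31.3 and 29.2 CPM in the controls and 60.6, 43.6 and 43.5 CPM with ruxolitinib and rose (0.71 ± 0.21, adjusted p = 0.0154, and adjusted p = 0.061 without ruxolitinib pool 1). The uncoupling protein relative Slc25a14 (UCP5) had 9.58, 7.98 and 17.9 CPM in the controls and 1.68, 3.80 and 3.73 CPM with ruxolitinib and was the largest fall of the tested members (-1.94 ± 0.43, adjusted p = 0.00386), again with control pool 6 highest. Slc25a30 (KMCP1) had 24.7, 29.3 and 38.995 CPM in the controls and 18.4, 17.6 and 20.4 CPM with ruxolitinib and fell (-0.72 ± 0.23, adjusted p = 0.0235), a call lost without ruxolitinib pool 1 (adjusted p = 0.0946), ruxolitinib pool 2 (0.0788) or control pool 5 (0.0581).

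The metal and glutathione carriers other than Slc25a39 did not pass. Slc25a40, the close relative of Slc25a39, had 10.4, 9.29 and 11.96 CPM in the controls and 6.51, 5.78 and 7.65 CPM with ruxolitinib (-0.67 ± 0.26, adjusted p = 0.0533), and the groups did not overlap. Slc25a28 encodes mitoferrin 2, the iron carrier of non-erythroid cells, and had -0.53 ± 0.22, adjusted p = 0.0597 by edgeR. The 4 tested members without an established substrate or with another role, Slc25a35, Slc25a45, Slc25a46 and Slc25a53, did not pass either, at 0.80 ± 0.45, 0.23 ± 0.19, -0.34 ± 0.19 and -0.66 ± 0.33. Slc25a53 did pass as lower without ruxolitinib pool 3 (adjusted p = 0.0211).

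The 10 members that were not tested had at most 17 reads in any library. Slc25a41 and Slc25a48 had 0 reads in all 6 libraries, and a count of 0 allows up to 3 reads per library, equal to 0.166 to 0.228 CPM and covering counting error only. Slc25a54 had 1 read in all, in ruxolitinib pool 1, and Slc25a34 had 2 reads in 1 library of each group. The glutamate carrier gene Slc25a18, expressed mainly in brain, had 6 reads in ruxolitinib pools 1 and 2 and 0 elsewhere. Slc25a27 reached 11 reads (ruxolitinib pool 1), Slc25a2 reached 6, Slc25a43 reached 16 and Slc25a47, a liver carrier gene, reached 17.

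Promoter sequences are shown for 2 carriers that fell, the abundant Slc25a5 and the aspartate-glutamate carrier gene Slc25a13, and for the 2 with the widest rises, as the 250 bases before the RefSeq start (GRCm38.p6), 5′ to 3′, on the strand of the gene. Capitals mark matches, on either strand, to 6 motifs: the NRF1 core, the E-box CACGTG, the ETS core CCGGAAG, the CCAAT box CCAAT, the GATA motif AGATAA and the STAT motif TTCNNNGAA.
Slc25a5, chrX:36795347-36795596, plus strand: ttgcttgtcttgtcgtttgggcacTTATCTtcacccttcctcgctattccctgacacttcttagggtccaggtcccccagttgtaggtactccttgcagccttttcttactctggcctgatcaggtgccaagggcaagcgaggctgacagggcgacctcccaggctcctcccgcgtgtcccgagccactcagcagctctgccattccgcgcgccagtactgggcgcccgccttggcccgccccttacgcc
Slc25a13, chr6:6217174-6217423, minus strand: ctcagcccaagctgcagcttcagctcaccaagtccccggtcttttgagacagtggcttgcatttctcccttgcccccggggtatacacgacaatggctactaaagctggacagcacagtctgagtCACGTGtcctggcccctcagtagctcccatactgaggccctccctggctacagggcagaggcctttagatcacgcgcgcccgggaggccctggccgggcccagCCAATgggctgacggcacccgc
Slc25a21, chr12:57197473-57197722, minus strand: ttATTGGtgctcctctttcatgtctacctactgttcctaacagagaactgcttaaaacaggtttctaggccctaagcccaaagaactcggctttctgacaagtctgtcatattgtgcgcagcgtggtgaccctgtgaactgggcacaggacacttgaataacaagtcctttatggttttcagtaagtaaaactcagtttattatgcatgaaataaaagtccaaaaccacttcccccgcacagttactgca
Slc25a23, chr17:57059864-57060113, minus strand: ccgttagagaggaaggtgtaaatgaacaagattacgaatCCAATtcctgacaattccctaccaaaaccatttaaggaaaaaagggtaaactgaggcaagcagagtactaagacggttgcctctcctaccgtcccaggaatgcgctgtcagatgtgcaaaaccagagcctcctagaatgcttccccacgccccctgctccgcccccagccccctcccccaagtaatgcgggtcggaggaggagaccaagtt
The Slc25a5 window holds 1 GATA motif, read on the opposite strand, and the Slc25a13 window holds 1 E-box and 1 CCAAT box. The windows shown for Slc25a21 and Slc25a23 hold 1 CCAAT box each, 248 and 211 bases before the start. RefSeq gives both genes another start, whose window holds none of the 6 motifs for Slc25a21 and a CCAAT box at 232 bases for Slc25a23. RefSeq windows matched 35 of the 45 members by symbol, among them 13 that fell and 6 that rose. A gene with several windows counted once if any held the motif. Over all 27025 genes with a window, 7.83% had an ETS core, and 5 of 35 members had one. It was present in 4 of the 13 that fell (Slc25a3, Slc25a4, Slc25a17 and Slc25a20) and 0 of the 6 that rose. An E-box was present in 6.86% of all genes and in 7 of 35 members, of which Slc25a13, Slc25a14, Slc25a15 and Slc25a33 fell and Slc25a36 rose. The CCAAT box was in 37.5% of all genes and 18 of 35 members, with 8 of the 13 that fell and 4 of the 6 that rose. Differences between the members that fell and those that rose were not tested for any motif. The GATA motif was in 2 members (11.4% of all genes), the STAT motif in 2 (8.13%) and the NRF1 core in 0 (0.877%). A match describes letters in the window and is no measured binding site.

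The make-up of the carrier pool within each library does not depend on how libraries are scaled to each other. Here the counts per kilobase of all 45 members were summed in each library, and each member was given as its share. The pool leaves out Slc25a37 and Ucp2, a carrier relative with another symbol. The mean level of Ucp2 with ruxolitinib was 684 CPM per kilobase, against 356 for Slc25a39. Slc25a5 took 43.4, 42.9 and 32.3% of the pool in the controls and 21.7, 23.5 and 29.8% with ruxolitinib. Slc25a39 took 5.60, 5.82 and 6.92% of the pool in the controls and 38.03, 40.4 and 24.7% with ruxolitinib. Among the 45 members it was the leading one in ruxolitinib pools 1 and 2 and the second in pool 3. Neither gene's shares overlapped between the groups, and for each the exact two-sided permutation p was 0.1, the smallest that 3 against 3 allows (0.167 adjusted over 45 members). Shares sum to a whole, so a larger share of Slc25a39 leaves less for the others. Without Slc25a39 in the pool, a check added after the data were seen, Slc25a5 took 45.98, 45.6 and 34.7% in the controls and 34.9, 39.4 and 39.6% with ruxolitinib, with overlapping groups (exact permutation p = 0.4).

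Slc25a51 took 0.996, 0.968 and 0.922% of the pool in the controls and 6.06, 5.79 and 3.90% with ruxolitinib, with ranks 13, 13 and 14 among the carriers of the control pools and 4, 4 and 6 in the treated pools. Slc25a3 took 12.2, 12.9 and 23.98% of the pool in the controls and 7.03, 6.01 and 8.35% with ruxolitinib, and Slc25a11 9.32, 9.16 and 10.4% of the pool in the controls and 5.20, 4.64 and 6.85% with ruxolitinib. Those 3 genes also had separate groups (exact permutation p = 0.1, the smallest possible), with or without Slc25a39 in the pool, although without it the mean difference of Slc25a11 was -1.82 in place of -4.05 percentage points. Many other members had separate shares in the full pool, among them Slc25a1, Slc25a10, Slc25a25, Slc25a35 and Slc25a45, which were not called. Separate shares are thus not particular to the genes described here. Slc25a4 took 10.3, 10.7 and 6.48% of the pool in the controls and 3.92, 4.33 and 6.49% with ruxolitinib, and its control pool 6 overlapped ruxolitinib pool 3 (exact permutation p = 0.2). The summed CPM of the 45 members ran from 2623 to 3472 with ruxolitinib and from 2952 to 3529 in controls and overlapped (exact two-sided permutation p = 0.5). The summed level of these members was therefore not distinguishable between groups on the TMM scale. It says nothing on the family with Slc25a37 and Ucp2, which the sum leaves out. Ucp2 alone had 1287, 1073 and 686 CPM in the controls and 5313, 5462 and 3557 CPM with ruxolitinib.

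**Figure D3:**
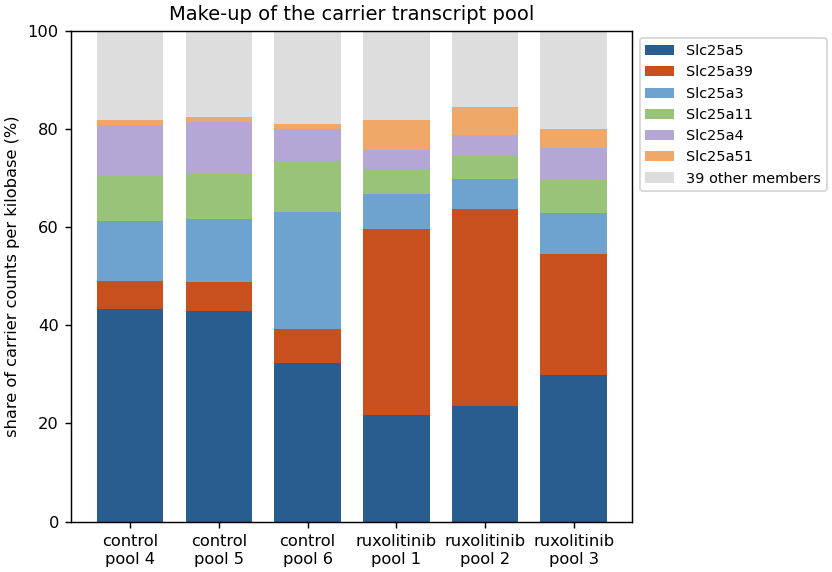
Share of the summed carrier counts per kilobase (%) taken by 6 abundant members and by the other 39, for each library. Slc25a5 takes 32.3 to 43.4% of the control bars and 21.7 to 29.8% of the ruxolitinib bars, and Slc25a39 5.60 to 6.92% and 24.7 to 40.4%.

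Ratios between related carriers give the same kind of scale-free view. Of 12 pairs listed, 10 had both members tested, and in 7 of these the ratio (counts per kilobase, 0.5 added to each count) did not overlap between groups. Each of the 7 had an exact two-sided permutation p of 0.1, the smallest that 3 against 3 allows, and 0.143 adjusted over 10 pairs, so none can pass 0.05. How many pairs of other genes separate in this way was not computed, and the pairs were chosen with earlier results of these data known. The ratio of Slc25a39 to Slc25a40 was 49.03, 57.8 and 54.2 in the controls and 465, 694 and 244 with ruxolitinib, a shift of 3.00 on the log2 scale. That of Slc25a23 to Slc25a25, both ATP-Mg/phosphate carriers, was 0.0800, 0.0747 and 0.214 in the controls and 0.909, 0.475 and 0.395 with ruxolitinib (shift 2.35). In both pairs every treated library leaned further to the first gene than any control did.

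Pairs that hold a malate-aspartate shuttle carrier shifted as well. Slc25a12 to Slc25a13, aralar to citrin, was 1.96, 1.64 and 1.51 in the controls and 3.12, 4.13 and 3.05 with ruxolitinib (shift 1.01), and Slc25a10 to Slc25a11 was 0.111, 0.101 and 0.0939 in the controls and 0.245, 0.257 and 0.174 with ruxolitinib (shift 1.12). Slc25a33 to Slc25a36, the pyrimidine nucleotide pair, moved from above 1 to below it, with 2.15, 1.78 and 4.86 in the controls and 0.531, 0.951 and 0.986 with ruxolitinib (shift -1.74). Slc25a14 to Slc25a30 shifted by -1.24 and Slc25a16 to Slc25a42 by -0.81. In contrast, the ADP/ATP pair Slc25a4 to Slc25a5 was 0.237, 0.248 and 0.201 in the controls and 0.181, 0.185 and 0.218 with ruxolitinib, a shift of -0.23 with overlapping groups (exact permutation p = 0.2, pooled SD 0.154). The shifts of Slc25a15 to Slc25a29 (0.14, pooled SD 0.569) and of Slc25a24 to Slc25a25 (under 0.01 in size, pooled SD 0.489) were smaller than the spread between libraries. For those 3 pairs a difference was not detectable at 3 pools a group, which does not show that the balance was equal.

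**Figure D4:**
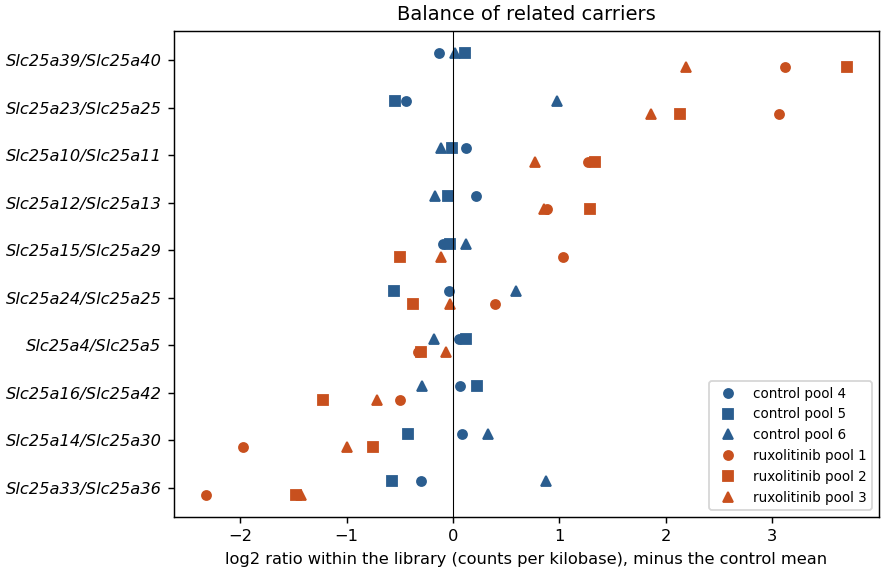
Log2 ratio of 2 related carriers within each library (counts per kilobase) minus the mean of the controls, for 10 pairs, with 1 symbol per pool. The Slc25a39/Slc25a40 ratio is shifted by 3.00 and Slc25a33/Slc25a36 by -1.74, while Slc25a4/Slc25a5 overlaps between groups.

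The direction of the 14 falls depended on the reference. With libraries scaled to the geometric mean of the CD8 identity genes, which were themselves lower with ruxolitinib, the median log2 fold change of all genes tested was 2.00, 70.5% of them were higher and 0.467% lower. On that scale all 8 carriers that rose were still higher (2.57 to 8.004), 10 of the 13 that had not passed became higher, and none of the 14 that fell passed in either direction. Of those 14, 13 had positive values (up to 1.19) and Slc25a14 had -0.17. All 14 stayed below the median of all genes there. The change of scale moved the genes up nearly in parallel, from a median of 0.03 under TMM. Rises that stayed positive and falls that stayed below the median therefore follow from the shift and are no separate support. Scaling to total counts without haemoglobin genes put the median of all genes at 0.37 and gave 12 of 35 tested carriers higher and 6 lower. Of the 13625 genes tested there, 5194 were higher and 2230 lower. Among called genes alone, 70.0% were higher, against 54.2% under TMM. The 8 falls that did not pass there were Slc25a5, Slc25a13, Slc25a15, Slc25a17, Slc25a22, Slc25a29, Slc25a30 and Slc25a33 (adjusted p 0.0519 to 0.188).

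**Figure D5:**
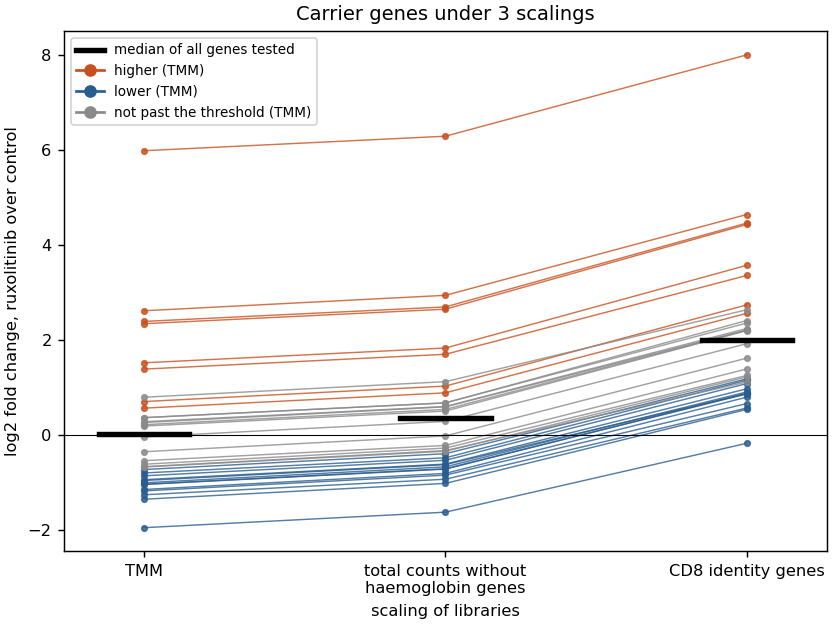
Log2 fold change (ruxolitinib over control) of 34 tested carriers under 3 scalings of the libraries, coloured by its call under TMM, with a black bar at the median of all genes tested. The carriers move up nearly in parallel from TMM to CD8 identity scaling, where the black bar is at 2.00, the 8 that rose lie above it and the 13 drawn that fell lie below it. A parallel shift leaves their side of the bar unchanged.

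Of the genes whose proteins bring carriers into the inner membrane, 11 of 16 tested were lower on the TMM scale and 0 under CD8 identity scaling. Carriers enter through the TOM complex of the outer membrane, are escorted by small TIM chaperones and are inserted by the TIM22 complex. Under TMM 0 rose and the median was -1.18, and under CD8 identity scaling 5 were higher. Of all genes tested, 29.9% were higher and 25.3% lower under TMM, and 70.5% higher and 0.467% lower under CD8 identity scaling. The smallest p-values were in the pore gene Tomm40 (-1.70 ± 0.21), the small TOM subunit gene Tomm5 (-2.11 ± 0.27) and the receptor gene Tomm20 (-1.44 ± 0.19). Tomm20 had 196, 202 and 206 CPM in the controls and 68.5, 72.8 and 80.8 CPM with ruxolitinib, with a wide gap between the groups. Timm22, which encodes the insertase itself, also fell (-1.06 ± 0.19), and Tomm70a, the receptor gene for carrier precursors, had -0.29 ± 0.18 and did not pass.

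Genes of inner membrane transporters outside the family had changes in both directions, with 8 of 27 tested higher and 4 lower (median 0.17). Under CD8 identity scaling 24 were higher and 0 lower. Under TMM the share higher was near the 29.9% of all genes, and the share lower was below their 25.3%. Under CD8 identity scaling 70.5% of all genes were higher and 0.467% lower. The rises with the smallest p were Abcb10 (5.09 ± 0.34), an ABC transporter gene of haem-forming cells, Tmem65 (3.33 ± 0.32), an inner-membrane protein gene, and the sideroflexin gene Sfxn5 (2.93 ± 0.36). Those that fell included the serine transporter gene Sfxn1 (-0.72 ± 0.20), Ccdc51 (-1.002 ± 0.31), which encodes a potassium channel subunit, and the calcium uniporter subunit gene Smdt1 (-0.78 ± 0.25). Of 5 outer membrane genes tested, Tspo, the gene of a cholesterol-binding translocator protein (-1.34 ± 0.27), and the porin genes Vdac2 (-1.20 ± 0.24) and Vdac3 (-0.48 ± 0.18) fell and none rose, while under CD8 identity scaling none fell and 3 were higher. These 5 stand beside the same shares of all genes tested. Without ruxolitinib pool 1, or without control pool 5, only 1 of the inner-membrane transporters outside the family was lower. The porin gene Vdac1 had 0.08 ± 0.20 and did not pass.

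Of the 4 tested carrier relatives that bear other symbols, the uncoupling protein gene Ucp2 had 1287, 1073 and 686 CPM in the controls and 5313, 5462 and 3557 CPM with ruxolitinib and rose (2.23 ± 0.33, adjusted p = 0.000459), as did Ucp3 (2.08 ± 0.44). Ucp2 is expressed by many immune and blood cells. The outer membrane relatives Mtch1 (-0.81 ± 0.23) and Mtch2 (-0.68 ± 0.19) fell under TMM, and with total counts without haemoglobin genes or under CD8 identity scaling neither was lower. Without ruxolitinib pool 1, or without control pool 5, only 1 of this pair was lower.

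Genes of enzymes that make or use the carried molecules had changes in both directions, with 10 of 34 tested higher and 13 lower (median -0.43). Under CD8 identity scaling 24 were higher and 0 lower. The shares higher were near those of all genes tested, 29.9% under TMM and 70.5% under CD8 identity scaling. The share lower under TMM was above the 25.3% of all genes, and 0.467% of all genes were lower under CD8 identity scaling. The glutathione synthesis genes Gclm (3.38 ± 0.29) and Gclc (2.07 ± 0.25) rose, while Gss, the gene of the enzyme that completes glutathione, had -0.70 ± 0.29 and did not pass. The rises also included the carnitine acetyltransferase gene Crat (3.97 ± 0.44). The falls with the smallest p were Bcat1 (-2.91 ± 0.29), the cytosolic branched-chain aminotransferase gene, Got2 (-1.65 ± 0.23), the mitochondrial aspartate aminotransferase gene of the malate-aspartate shuttle, and Mthfd1l (-1.39 ± 0.24), a gene of mitochondrial one-carbon metabolism. Got2 had 299, 349 and 431 CPM in the controls and 97.6, 115 and 131 CPM with ruxolitinib, and Gclm had 27.1, 25.5 and 36.01 CPM in the controls and 335, 382 and 208 CPM with ruxolitinib. For both genes the groups lay far apart. Without ruxolitinib pool 1 or pool 2, 7 of these enzyme genes were lower.

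The 45 members lie on 19 chromosomes, with 4 on the X chromosome, and 42 have the same coordinates in GENCODE release M21 as in the deposited table (mm10). Slc25a39 lies on chromosome 11 at 102402985 to 102407946, Slc25a51 on chromosome 4 at 45395923 to 45408766, Slc25a21 on chromosome 12 at 56712634 to 57197472, Slc25a5 on chromosome X at 36795651 to 36798807 and Slc25a3 on chromosome 10 at 91116574 to 91124059. Members next to each other differed in level. Slc25a23 (chromosome 17 from 57043711) had reads in every library beside Slc25a41, which had 0 reads (to 57041654), and Slc25a29 (to 108835883 on chromosome 12) was tested while its neighbour Slc25a47 (from 108836046) was not. Reads of overlapping genes cannot be told apart without the strand, which the sources used here do not state. Among tested members over 10% of exon bases were shared in 2, Slc25a35 (31.3%, with Rangrf) and Slc25a33 (14.9%, with Gm13068). How reads that match several genes were counted is also not given, which bears on close paralogues and on processed copies such as Slc25a5-ps, which had 2 reads in all.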

How the data were processed

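Gene counts were deposited by the authors as raw, whole-number read counts per gene for 6 libraries, with symbols, positions and a gene length as an added column of bases. Per the submitters' processing notes, reads were aligned with HISAT2 2.0.5 to mm10. The sources used here do not give the counting program, its strand setting or its annotation. Groups came from the sample titles.

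The whole table was tested with edgeR 4.0.16 (R 4.3.3): filterByExpr, TMM factors, robust glmQLFit and glmQLFTest, with Benjamini-Hochberg adjustment over all 13480 genes that passed and a threshold of 0.05. SE is the log2 fold change divided by the square root of F. CPM uses TMM-scaled library sizes, and levels per length use the deposited length. Shares and ratios were set against each other by two-sided exact permutation (SciPy 1.17.1), which cannot go below 0.1 with 3 against 3. Alternatives were RLE and upper-quartile factors, total counts without haemoglobin genes, scaling to 17 CD8 identity genes, other filters, protein-coding genes alone, DESeq2 1.42.0, limma-voom (limma 3.58.1), a pseudocount of 1 for ratios, a carrier pool without Slc25a39 (added after seeing the data) and leaving out each pool. The code was tested on simulated counts. The members, gene lists and pairs were chosen with earlier results of these data known. Named genes were the 8 largest rises and falls with at least 5 CPM, the 6 most abundant members per length, all pair members, up to 3 called genes per direction of each pathway list and the 2 most abundant of each marker list. Timm22, Tomm70a, Vdac1 and Gss were named after their values were seen. 1 tested member, included in all counts, is not reported here by name or in the plots of single genes.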

Additional observations from a re-analysis of the deposited data

How the results depend on the processing

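No paired analysis was possible because the ruxolitinib pools (1 to 3) and the control pools (4 to 6) share no number. RLE and upper-quartile factors, limma-voom and a filter of 1 CPM in 3 libraries left all 35 tested carriers with the same direction and side of the threshold; DESeq2 changed 1 carrier (Slc25a40, then past it), no filter 1 (Slc25a16, lost) and protein-coding genes alone 3. Total counts without haemoglobin genes gave 6 carriers lower, a carrier median of -0.21, 18 pathway genes lower (of 33) and Slc25a12 at 0.29. Scaling to CD8 identity genes gave 18 carriers higher, 0 lower, a carrier median of 1.40, and 59 pathway genes higher (20 under TMM) and 0 lower. Carriers whose direction it reversed, as far as reported by name, had log2 fold changes as follows: Slc25a3 0.55, Slc25a4 0.88, Slc25a5 1.16, Slc25a11 0.98, Slc25a12 1.93, Slc25a13 0.91, Slc25a15 0.80, Slc25a17 0.88, Slc25a20 0.87, Slc25a22 1.09, Slc25a28 1.40, Slc25a29 0.58, Slc25a30 1.19, Slc25a32 1.26, Slc25a33 0.67, Slc25a40 1.23, Slc25a46 1.63 and Slc25a53 1.12. In the fits that leave out 1 pool each, 6 to 8 carriers were higher, 9 to 16 lower, the carrier median ran from -0.56 to -0.40, 15 to 21 pathway genes were higher and 21 to 37 lower. Of the called carriers, 6 of the 8 that rose and 8 of the 14 that fell passed in all 6 of these fits. Slc25a12, near 0 throughout, ran from -0.18 to 0.14 in these fits and was 0.01 without ruxolitinib pool 1 and 0.04 without ruxolitinib pool 2. The carrier pool without Slc25a39, chosen after seeing the data, moved the mean share difference of Slc25a5 from -14.57 to -4.13 percentage points. The Slc25a15/Slc25a29 shift ran from -0.30 (without ruxolitinib pool 1) to 0.46, and the Slc25a24/Slc25a25 shift from -0.28 to 0.29, with 0.18 and 0.0078 without ruxolitinib pools 2 and 3. The cause of these changes was not tested. Depth limits the 10 untested members and those near 1 CPM.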
